A study of Oryza sativa with 18 samples.

Results

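The genes described here are abundant rice genes to which no peak of N6-methyladenosine (m6A) was assigned in any of 3 organs. They were chosen by 2 measured properties: a mean input level of at least 20 FPKM (fragments scaled to transcript length and library depth) in each of 3 groups, and a gene identifier absent from all 3 peak lists. The rule found 249 genes among 2716 abundant genes and 38663 genes in the expression table. That is 9.17% of the abundant genes (exact 95% interval 8.11 to 10.3%, which covers the counting of genes only). Of the other 2467 abundant genes, 2349 had a peak in all 3 lists, 58 in 2 lists and 60 in 1 list. A gene without an assigned peak is not thereby shown to lack m6A.

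The study profiled Nipponbare rice sown in the field in Henan on 2 May 2019. Panicles at booting were taken on 3 August, panicles at flowering on 14 August and flag leaves at flowering on a day that the labels do not give, all at about 3 PM. All groups share the same genotype and field, and no treatment is labelled. For each group, 3 libraries of m6A immunoprecipitate and 3 of input were made with the strand-specific dUTP method from poly(A) RNA cut to about 100 nt, of which 10% served as input. Panicle stage cannot be told apart from the day of collection. The labels do not say whether replicate libraries came from separate plants, so p-values cover no more than the spread between libraries that share a label.

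m6A is a methyl group set on adenosines of mRNA by a methyltransferase complex and bound by YTH-domain reader proteins; in plants it lies mainly near stop codons and in 3′ UTRs and is known to act on RNA stability and translation. In m6A-seq an antibody enriches fragments that carry the mark, and a peak is a stretch where the immunoprecipitate exceeds the input. Whether a gene receives a peak therefore depends on the mark, on the fragments available and on the way each peak is given to a gene.

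The depth of the input libraries was not established. A search over the smallest steps of FPKM fitted best at 29.6 to 34.1 M fragments per library. Only 33.3 to 50% of the values used were then within 0.1 of a whole fragment. Pearson correlations of log2(FPKM + 1) between replicates were 0.988 to 0.996. The organ markers followed the labels: MADS1 (LOC_Os03g11614), a floral organ identity factor, ran from 360 to 379 FPKM at booting, from 631 to 800 at flowering and from 4.62 to 6.37 in the leaf. Flag leaf replicate 3 stood apart among the genes without a peak. In 13 of the 249 it lay below 0.5 times the lower of the other leaf libraries, against 0 to 3 of 249 for each of the other 8 libraries and 8 of 2467 abundant genes with a peak in the same library. Counts of calls against the flag leaf are given with and without this library. In bulk RNA, fewer cells of a type and less RNA per cell cannot be told apart, which holds for every level below.

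The genes without a peak were mostly short. Since the peak calls chose them, their differences from abundant genes with a peak are given as descriptions, with no test. Their median span (end minus start, introns included) was 1903 bases, with quartiles of 1156 and 3737, against 4146 bases for abundant genes with a peak, 4021.5 for all abundant genes and 2678 for all genes of the table. Of the 249 genes, 132 (53.0%) spanned under 2000 bases, against 195 of 2467 (7.90%) with a peak. Their exon lengths were not used here, so spans do not give the length of the mRNA.

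The share without a peak fell with each class of span. It was 43 of 75 abundant genes (57.3%) under 1000 bases, 89 of 252 (35.3%) from 1000 to under 2000 bases and 41 of 468 (8.76%) from 2000 to under 3000 bases. It was 42 of 1005 (4.18%) from 3000 to under 5000 bases and 34 of 916 (3.71%) at 5000 bases and more. The exact 95% intervals cover the counting of genes only. They were 45.4 to 68.7% under 1000 bases and 29.4 to 41.6% from 1000 to under 2000 bases. From 2000 to under 3000 bases the interval was 6.36 to 11.7%, and in the longest classes 3.03 to 5.61% and 2.58 to 5.15%.

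**Figure D1:**
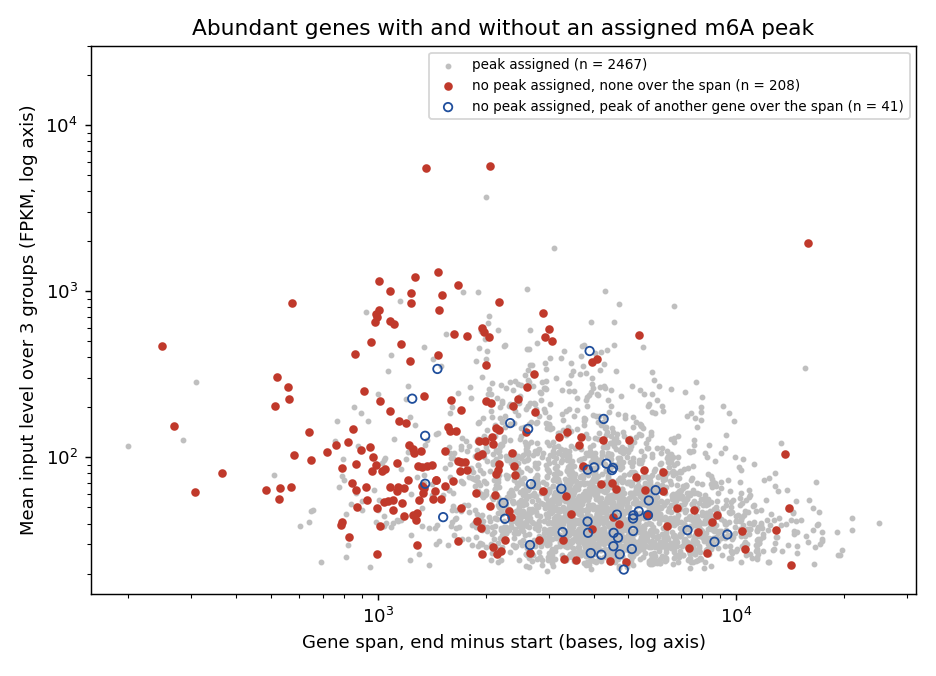
Each point is an abundant gene, placed by its span (x axis, bases, log scale) and its mean input level over the 3 groups (y axis, FPKM, log scale). Grey points have an assigned peak (2467), red points have none and no peak over their span (208), and open blue circles have none but lie under a peak given to another gene (41); red points gather at short spans and high levels, and blue circles at longer spans.

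The genes without a peak were also the more abundant ones. Their median level over the 3 groups was 83.1 FPKM, against 48.9 FPKM for abundant genes with a peak. The share without a peak was 44 of 905 (4.86%) at 20 to under 40 FPKM, 76 of 1088 (6.99%) at 40 to under 80, 66 of 452 (14.6%) at 80 to under 160 and 63 of 271 (23.2%) at 160 and more. Within the span class of 1000 to under 2000 bases the share was 5 of 40 (12.5%) at 20 to under 40 FPKM and 29 of 54 (53.7%) at 160 FPKM and more. Among genes of 5000 bases and more it was 13 of 407 (3.19%) and 2 of 34 (5.88%) at the same levels, with intervals that overlapped (1.71 to 5.40% and 0.720 to 19.7%). Over all genes of the table the relation to level ran the other way: 71.0% of 23382 genes with a lowest group mean under 1 FPKM had no peak, 27.1% of 6074 from 1 to under 5, 11.2% of 6491 from 5 to under 20 and 9.17% of those at 20 and more.

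**Figure D2:**
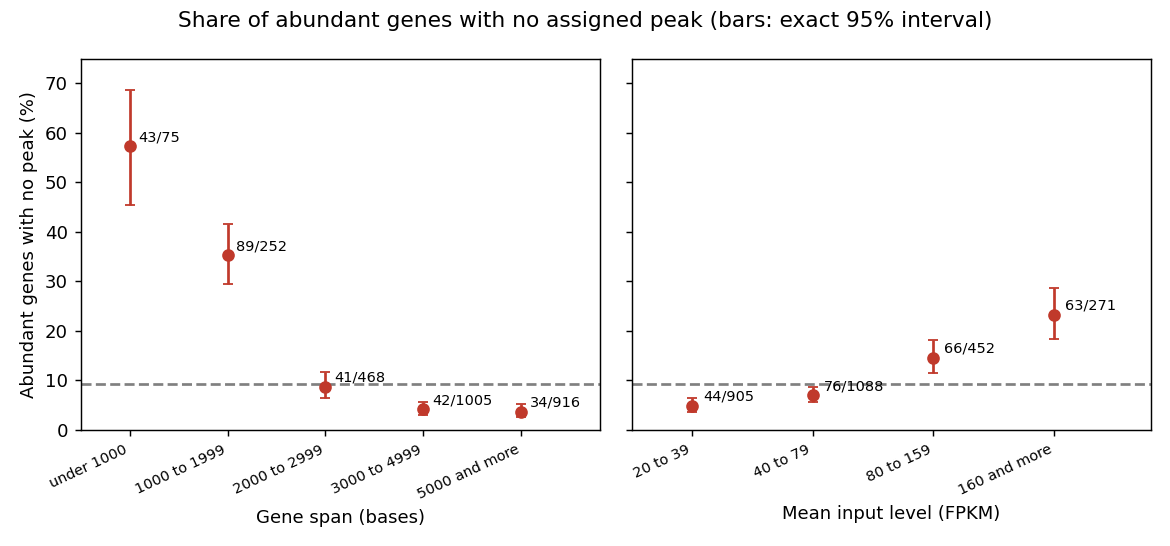
Percent of abundant genes with no assigned peak (y axis) in classes of gene span (left, bases) and of mean input level over the 3 groups (right, FPKM), with exact 95% intervals as bars, counts beside each point and the share of 9.17% over all abundant genes as a dashed line. The share falls from 57.3% to 3.71% across the span classes and rises from 4.86% to 23.2% across the level classes.

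Level times span, in FPKM times kilobases, gives the most fragments that a gene could contribute for a given depth if its span held no intron. This product had a median of 226 in abundant genes with a peak and 186 in those without, and 107 of the 249 genes (43.0%) lay above the first of these. Another 49 lay below 79.3, the 5th percentile of abundant genes with a peak. The other 200 lay at or above it. The immunoprecipitate libraries have no values per gene in the files used, so the fragments they held for these genes were not analysed here.

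The extremes of span show what the set holds. The shortest gene was 60S ribosomal protein L39-3 (LOC_Os06g08320), a small protein of the large ribosomal subunit, which spans 248 bases (chromosome 6, 4033795 to 4034043, minus strand; the build is not given in the sources used here). Its input levels were 643, 646 and 678 FPKM in booting panicles, 459, 457 and 561 in flowering panicles and 259, 250 and 246 in flag leaves. The 3 groups did not overlap, and the level was highest at booting. The next shortest genes, LOC_Os05g09580 (269 bases), LOC_Os12g38660 (308), LOC_Os08g45070 (365) and LOC_Os07g38630 (486), have no informative name. The longest was a RuBisCO small chain (LOC_Os12g19381) at 15885 bases, and the 8 longest also held histone H2B.6 (LOC_Os01g05970, 13705 bases), a ubiquitin carboxyl-terminal hydrolase (LOC_Os03g06950, 10563 bases) and calcium-transporting ATPase 4 of the endoplasmic reticulum (LOC_Os03g17310, 9448 bases).

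The most abundant genes of the set serve carbon fixation and light capture. RuBisCO activase (LOC_Os11g47970), which frees RuBisCO of bound inhibitors, was the most abundant, with 72.7, 78.2 and 55.5 FPKM in booting panicles, 1474, 1263 and 1474 in flowering panicles and 15986, 15106 and 15694 in flag leaves. It spans 2046 bases on chromosome 11 (28934294 to 28936340, minus strand). The groups stood far apart, in the order flag leaf, flowering panicle and booting panicle.

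Metallothionein-like protein 3A (LOC_Os01g10400), a small cysteine-rich metal-binding protein of 1360 bases span, followed with 113, 161 and 84.5 FPKM at booting, 2460, 1979 and 2136 at flowering and 14832, 13205 and 14437 in flag leaves. It was the only metallothionein gene that met the abundance minimum in every group. The RuBisCO small chains, the nuclear-encoded part of the enzyme that fixes carbon dioxide, stood at 72.8 ± 45.9, 1848 ± 150 and 3908 ± 170 FPKM (LOC_Os12g19381; mean ± SD, n = 3; booting, flowering, leaf) and at 23.6 ± 6.54, 709 ± 90.9 and 2917 ± 258 FPKM (LOC_Os12g17600). Reads may be split between such small chain copies, which makes each copy's level uncertain.

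Not all of the most abundant genes were leaf genes. A peptidyl-prolyl cis-trans isomerase (LOC_Os02g02890), a protein-folding enzyme, stood at 835, 895 and 1012 FPKM at booting, 1360, 961 and 916 at flowering and 923, 1034 and 1095 in flag leaves, so its groups overlapped. Glycine-rich RNA-binding protein 2 (LOC_Os03g46770) was highest at booting, at 1435 ± 131 FPKM, against 770 ± 72.5 at flowering and 348 ± 15.8 in flag leaves (mean ± SD, n = 3). Among the 15 most abundant genes, LOC_Os01g74300, LOC_Os05g41060 and LOC_Os01g45470 have no informative name.

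By the descriptions deposited with the genes, 158 of the 249 have an informative name and 91 (36.5%) do not, against 31.8% of abundant genes with a peak. Of 20 functional lists, 54 genes fell in at least 1, and 105 further genes had an informative name outside every list. The background for all list counts is the 9.17% over all abundant genes, and the share over all abundant genes of the same span classes stands beside the list counts.

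Photosystem and antenna genes, which encode the nuclear subunits of the light reactions and the chlorophyll-binding proteins around them, were the list with the highest share among those of more than 1 abundant gene. Of 24 abundant members 16 had no peak (66.7%, exact 95% interval 44.7 to 84.4%), where all abundant genes of the same span classes gave 29.4%. Of the 17 members under 2000 bases 15 had none (88.2%), against 116 of 264 (43.9%) abundant genes of that length outside this list and that of cytosolic ribosomal proteins. All 17 stood at 160 FPKM or more, and among short genes at that level outside the photosystem and cytosolic ribosomal lists 25 of 49 (51.0%) had none. In the deposited annotation, the KEGG pathway of antenna proteins had 7 of 11 abundant genes without a peak. That is 63.6% (exact 95% interval 30.8 to 89.1%), where the same span classes gave 28.1%. The photosynthesis pathway had 12 of 20 (60%, 36.1 to 80.9%, against 30.2%). Both pathways name the same kinds of genes as the list, so they are not separate evidence.

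The 16 genes spanned a median of 1353.5 bases. The chlorophyll a-b binding proteins P4 (LOC_Os08g33820), CP29.1 (LOC_Os07g37240), CP24 (LOC_Os04g38410), 1 (LOC_Os09g17740), 2 (LOC_Os01g41710) and 8 (LOC_Os02g10390) belong to the antennae. Photosystem I was represented by subunits II (LOC_Os08g44680), III (LOC_Os03g56670), N (LOC_Os12g08770), O (LOC_Os04g33830) and psaK (LOC_Os07g05480). Photosystem II was represented by the oxygen-evolving enhancer proteins 1 (LOC_Os01g31690) and 2 (LOC_Os07g04840) and protein W (LOC_Os01g56680). Plastocyanin (LOC_Os06g01210), which carries electrons to photosystem I, and a further chlorophyll a-b binding protein (LOC_Os03g39610) complete the 16.

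Protein P4, an antenna protein of photosystem I, had 261, 330 and 229 FPKM at booting, 1230, 648 and 964 at flowering and 2526, 2687 and 2843 in flag leaves. Every leaf library lay above every flowering library, and these above every booting library. Plastocyanin had 41.9, 56.7 and 39.1 FPKM at booting, 302, 237 and 301 at flowering and 908, 956 and 945 in flag leaves, in the same order. Protein 8 had the lowest mean level of the 16 and a booting library, replicate 3, of 18.8 FPKM against 49.0 and 60.4 in the others.

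**Figure D3:**
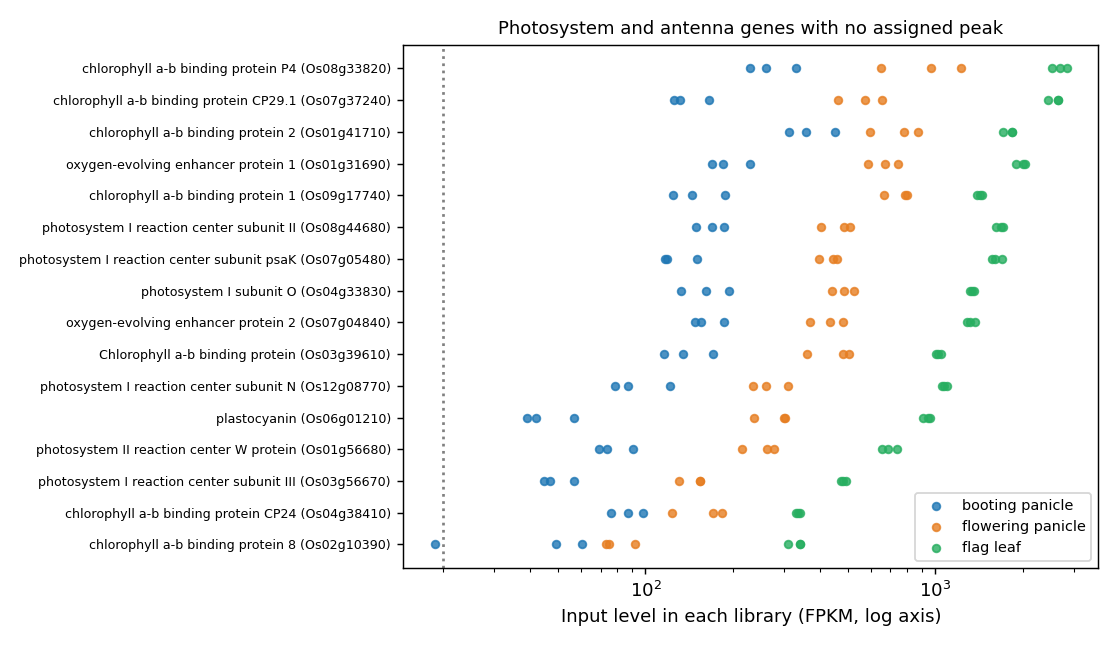
Input level of the 16 photosystem and antenna genes without an assigned peak in each of the 9 libraries (x axis, FPKM, log scale; blue booting panicle, orange flowering panicle, green flag leaf; the dotted line marks 20 FPKM). In each gene the 3 flag leaf libraries lie above the 6 panicle libraries.

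The 8 abundant photosystem genes that did have a peak had mostly low folds, though p scores that were not weak except in 1 gene. That gene, LOC_Os07g05360, had folds of 8.04 at booting and 2.43 at flowering in the authors' deposited table. Its log10 p scores there were -8.77 and -2.57, and it had no peak in the flag leaf list. In the authors' deposited table the highest fold of immunoprecipitate over input per gene had a median of 3.04 among them, against 10.1 for 115 cytosolic ribosomal protein genes and 15.9 for all 2467 abundant genes with a peak. In the authors' deposited table the antenna protein of LHCII type III (LOC_Os07g37550) and protein 7 (LOC_Os07g38960) had a peak in the flag leaf list alone, with folds of 1.42 and 1.17 and log10 p scores of -285 and -145. The highest fold among the 8 in the authors' deposited table was that of LOC_Os07g37030, the iron-sulfur subunit in cytochrome b6-f, at 9.68 at booting, 6.33 at flowering and 6.40 in the leaf, with log10 p scores there of -1200, -4780 and -24500. The most abundant member with a peak was the photosystem II 10 kDa polypeptide (LOC_Os08g10020) at a mean of 3717 FPKM, whose folds in the authors' deposited table were 6.56, 3.43 and 2.44.

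Cytosolic ribosomal protein genes had a share below that of their span classes. Their median span was 2174 bases, against 1472 in the photosystem list. Of 119 abundant members 4 had no peak (3.36%, exact 95% interval 0.923 to 8.38%), where all abundant genes of the same span classes gave 20.3%. Of the 46 members under 2000 bases 1 had none (2.17%), the L39-3 gene already described. Most of these short genes were less abundant than the short photosystem genes: 39 of the 46 stood under 160 FPKM, of which 0 had none, and at 160 FPKM or more 1 of 7 (14.3%) had none. Of the 73 members at 2000 bases or more 3 had none (4.11%), near the 4.89% of abundant genes of that length outside both lists. These 3 were L17 (LOC_Os08g41810), L9 (LOC_Os09g31180) and Sa-2 of the small subunit (LOC_Os07g42450). The L17 gene had 217, 261 and 296 FPKM at booting, 115, 113 and 122 at flowering and 68.3, 63.7 and 66.8 in flag leaves, with no overlap between the groups. None of the 14 abundant genes of organelle ribosomal proteins lacked a peak, where the same span classes gave 16.9%. The upper interval bound of 23.2% lies above that share. The shares of the photosystem list and of the cytosolic ribosomal list are descriptions, since the peak calls chose the genes. Whether the difference between these shares comes from the mark was not tested.

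**Figure D4:**
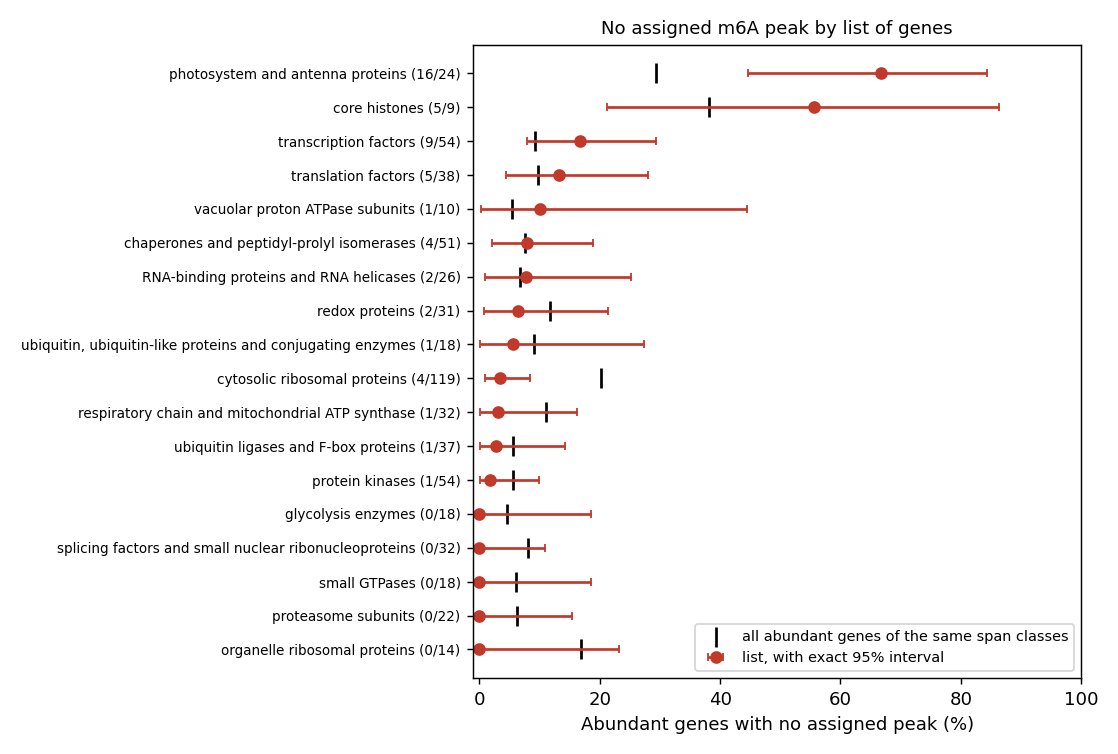
Percent of abundant genes with no assigned peak in each of 18 lists (red points, exact 95% intervals; counts in brackets) beside the share of all abundant genes in the same span classes (black ticks). Photosystem and antenna genes stand at 66.7% against 29.4%, and cytosolic ribosomal proteins at 3.36% against 20.3%; the metallothionein and lipid transfer protein lists held 1 abundant gene each and are not drawn.

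Core histones, the proteins around which DNA is wound, followed among the 20 lists, leaving aside those of metallothioneins and lipid transfer proteins with 1 abundant gene each. They had no peak in 5 of 9, in span classes where the share was 38.1%. The interval of 21.2 to 86.3% holds that share. The 5 were H2A.2 (LOC_Os07g36140), H2B.9 (LOC_Os05g49860), H4 (LOC_Os09g38020), H2B.6 (LOC_Os01g05970) and H2B.11 (LOC_Os01g62230). H2B.9 had 226, 303 and 327 FPKM at booting, 50.3, 54.4 and 61.1 at flowering and 29.6, 32.1 and 34.2 in flag leaves. H2A.2 was called in no comparison, with group means from 132 to 155 FPKM. Histone genes come in near-identical copies, between which reads may be split, and the value of each is uncertain for that reason.

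For each of the remaining lists the interval held the share of the same span classes, which follows each count in brackets here. Of 54 abundant transcription factors 9 had no peak (16.7% against 9.32% in the same span classes, interval 7.92 to 29.3%), and of 38 translation factors 5 (13.2% against 9.71%), among them elongation factor 1-alpha (LOC_Os03g08050, 896 ± 122, 547 ± 40.4 and 368 ± 30.3 FPKM; mean ± SD, n = 3, at booting, flowering and in leaf). Of 51 chaperones and isomerases 4 had none (7.84% against 7.59%), of 54 protein kinases 1 (1.85% against 5.53%) and of 32 respiratory chain and ATP synthase genes 1 (3.13% against 11.1%). Of 37 ubiquitin ligases and F-box proteins 1 had none (2.70% against 5.56%), EIN3-binding F-box protein 1 (LOC_Os02g10700). Of 26 RNA-binding proteins and helicases 2 had none (7.69% against 6.69%), of 31 redox proteins 2 (6.45% against 11.8%) and of 10 vacuolar proton ATPase subunits 1 (10% against 5.41%). Of 18 ubiquitin-like proteins and conjugating enzymes 1 had none (5.56% against 9.11%), the small ubiquitin-related modifier 1 (LOC_Os01g68950). No gene without a peak was found among 32 splicing factors, 22 proteasome subunits, 18 small GTPases and 18 glycolysis enzymes, with upper interval bounds of 10.9, 15.4, 18.5 and 18.5%, where the same span classes gave 8.10, 6.18, 6.16 and 4.61%. The single abundant lipid transfer protein, non-specific lipid-transfer protein 1 (LOC_Os11g02400), had no peak either.

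Smaller families stood out on reading the names. The following were picked after their values were seen, so their shares are descriptions that the choice favours. All 3 abundant genes of RuBisCO small chains and activase had no peak, where the same span classes gave 15.9%. Among tubulins, the subunits of microtubules, 3 of 4 had none (against 6.47%): alpha-2 (LOC_Os11g14220), alpha-1 (LOC_Os03g51600) and beta-3 (LOC_Os06g46000). Of 11 ethylene-responsive transcription factors 6 had none (54.5% against 22.4% in the same span classes), 5 of them under 2000 bases, among them RAP2-13 (LOC_Os09g20350) and RAP2-4 (LOC_Os08g31580). Of 6 aquaporins, the water channels of membranes, 3 had none (against 16.1%), namely PIP1-2 (LOC_Os04g47220), PIP2-1 (LOC_Os07g26690) and TIP2-2 (LOC_Os06g22960). Of 4 A20 and AN1 zinc finger stress-associated proteins 2 had none (against 22.04%), both under 2000 bases. Of the 152 other proteins described as chloroplastic, only 9 had none (5.92%, against 7.38% in the same span classes), among them ferredoxin-1 (LOC_Os08g01380, 498 FPKM) and the triose phosphate translocator TPT (LOC_Os01g13770, 170 FPKM).

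Peaks were given to genes by the authors' annotation, and 41 of the 249 genes in fact lay under a peak that had been given to another gene. For 37 of them that gene was on the opposite strand and for 5 on the same strand, with 1 gene under both kinds. For the other 208, no peak of any list touched the span by 1 base or more. Genes overlapped by another gene on the opposite strand made up 40 of the 249 (16.1%), against 62 of 2467 (2.51%) abundant genes with a peak. On the same strand the counts were 8 (3.21%) and 13 (0.527%).

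The 37 genes under an opposite-strand peak shared a pattern. The authors' deposited table lists 36 of the 37 peaks as 3′ UTR peaks of the partner gene, and all 37 in each of the 3 organs. In 30 of 37 the peak's centre lay in the last 25% of the span of the gene without an assigned peak, or past its end, at a median distance of 590 bases from its 3′ end. The genes had a median level of 44.8 FPKM and their partners one of 7.34 FPKM. The partner was the less abundant gene in 36 of the 36 pairs with a level for both, and stood at 0.1 times the level or less in 17. The rule bears on this order, since it asked for 20 FPKM in every group of the 37 genes and for nothing of their partners; the median level was 50.9 FPKM over all abundant genes and 1.93 FPKM over all genes measured.

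**Figure D5:**
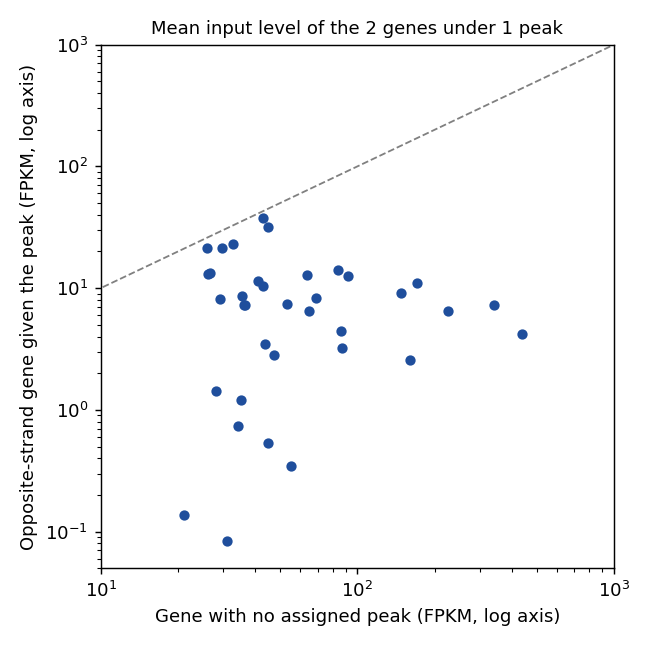
Mean input level over the 3 groups (FPKM, log scales) of genes without an assigned peak (x axis) and of the opposite-strand gene given the peak that lies over them (y axis), for the 36 pairs with both levels; the dashed line marks equal levels. Every point lies below the line, with medians of 44.8 FPKM for the 37 genes, which the rule chose at 20 FPKM or more, and 7.34 FPKM for their partners, on which it set no minimum.

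The triose phosphate translocator TPT, which exports fixed carbon from the chloroplast, is such a gene. It had 74.8, 74.5 and 52.2 FPKM at booting, 121, 105 and 114 at flowering and 359.5, 278 and 355 in flag leaves, a mean of 170 FPKM. The peak over it, with a highest fold of 17.6 in the authors' deposited table, was given to a dnaJ homolog (LOC_Os01g13760) at 11.0 FPKM. Its centre lay 549 bases inside the 3′ end of the translocator gene. The peak over photosystem II protein W (341 FPKM) was given to an alpha-mannosidase (LOC_Os01g56670) at 7.33 FPKM, with a highest fold of 19.2 in the authors' deposited table. A plant SNARE of vesicle fusion (LOC_Os03g25390, 21.1 FPKM) lay under a peak given to LOC_Os03g25380 at 0.137 FPKM.

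Ribosomal proteins L9 and Sa-2, tubulin beta-3, photosystem I subunit III, translation initiation factor 2 subunit beta (LOC_Os07g48300) and the flavoprotein subunit of succinate dehydrogenase (LOC_Os07g04240) lay under opposite-strand peaks as well. By position, then, 14 of 24 photosystem genes and 2 of 119 cytosolic ribosomal protein genes were under no peak at all. For photosystem I subunit III, 8.51% of the peak lay inside the span, and for Sa-2 29.2%.

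In 35 of the 37 pairs the partner was the gene that starts at the lower coordinate. The same held over all peaks that covered exactly 2 genes on opposite strands: the authors' deposited table gives the gene with the lower start for 95.3% of 1030 such peaks at booting, 96.0% of 1042 at flowering and 93.9% of 1053 in the leaf. The more abundant of the 2 genes received the peak in 48.4, 48.7 and 47.2% of them. The strand in the peak lists is that of the assigned gene, so the lists do not tell from which gene's RNA the enriched fragments came.

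Genes under an opposite-strand peak were the longer ones. They were 3 of 132 genes under 2000 bases (2.27%), 6 of 41 from 2000 to under 3000 bases (14.6%) and 28 of 76 from 3000 bases up (36.8%). Their median span was 4339 bases, against 1607 for the other 212 genes. Of the 5 genes under a same-strand peak, 2 were translation initiation factor 5 loci (LOC_Os06g48355 and LOC_Os09g15775) and 1 was named hornerin (LOC_Os02g15885), each under the peak of a neighbouring locus of the same name. The other 2 were WD repeat-containing protein 70 (LOC_Os10g32710) and LOC_Os12g38430.

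Expression of the 249 genes differed more between organs than that of abundant genes with a peak. The SD of log2(FPKM + 1) over the 9 libraries had a median of 0.683, against 0.424, and without flag leaf replicate 3 of 0.650, against 0.415. The ratio of the highest to the lowest group mean had a median of 2.78, against 1.89, and was 10 or more in 19 genes (7.63%), against 52 (2.11%). The flag leaf was the highest group in 83 genes (33.3%), the booting panicle in 100 (40.2%) and the flowering panicle in 66 (26.5%), where abundant genes with a peak gave 23.9, 51.5 and 24.6%. Without flag leaf replicate 3 the counts were 85, 101 and 63, and the median ratio was 2.77, against 1.89. Together the 249 genes took 6.39, 6.68 and 6.35% of all FPKM in the booting libraries, 9.15, 7.74 and 8.38% in the flowering libraries and 16.8, 16.7 and 16.5% in the leaf libraries. The 16 photosystem genes took 0.386 to 0.541%, 1.04 to 1.38% and 3.95 to 4.06% of it.

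From booting to flowering, genes of carbon fixation and of the light reactions rose in the panicle, while tubulin genes and 3 of 5 histone genes fell. A call needed an adjusted p under 0.05 in limma (Benjamini-Hochberg, 23355 genes) and a log2 change of 1 or more in size. Of the 249 genes 70 rose, 14 fell and 165 were not called, so that 33.7% were called where 33.4% were called over all genes tested (18.1% higher and 15.3% lower). The median log2 change was 0.20, against -0.09 over all genes. All 3 libraries of one group lay above those of the other in 69 of the 70 that rose and in all 14 that fell. The same count was not made over all called genes, so it is not a trait of the set. The minimum of 20 FPKM in every group limits how far these genes can change in either direction. Under the same minimum, 196 of the 2467 abundant genes with a peak rose and 113 fell.

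Both RuBisCO small chains rose most, with log2 changes of 4.87 (LOC_Os12g17600, SE 0.18, adjusted p = 4.2e-09 in limma) and 4.82 (LOC_Os12g19381, SE 0.34, 5.07e-07). RuBisCO activase rose by 4.34 (SE 0.15, adjusted p = 3.57e-09), metallothionein 3A by 4.23 (SE 0.22, 5.41e-08) and lipid-transfer protein 1 by 2.85 (SE 0.17, 1.55e-07). Of the 16 photosystem genes 14 rose and 2 were not called (median log2 change 1.62, range 0.85 to 2.59). Of the 8 abundant photosystem genes with a peak 7 rose and 1 was not called (median 1.83).

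Among genes with an informative name, histone H2B.9 fell by 2.34 on the log2 scale (SE 0.13, adjusted p = 9.64e-08 in limma) and H4 by 1.52 (SE 0.15, 6.78e-06). Of the 5 histones 3 fell and 2 were not called (median -1.38). Of the 4 abundant histones with a peak 1 fell and 3 were not called (median -0.82). Tubulin alpha-2 fell by 1.75 (SE 0.10, adjusted p = 7.79e-08) and alpha-1 by 1.63 (SE 0.07, 2.11e-08). The 1 abundant tubulin with a peak (LOC_Os07g38730) fell as well, by 1.03. UDP-glucose 6-dehydrogenase 3 (LOC_Os03g55070), which supplies precursors of cell wall polysaccharides, fell by 1.42 (SE 0.13, 2.95e-06).

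Against the flag leaf, flowering panicles were higher in 65 of the 249 genes and lower in 41, with 143 not called. These 42.6% stand beside 42.5% over all genes tested (31.0% higher and 11.5% lower), and the median log2 difference was 0.18, against 0.44 over all genes. Without flag leaf replicate 3, 55 were higher and 41 lower, and 94 of the 106 calls were kept. All 3 libraries of each group stood apart in 64 of the 65 higher and all 41 lower genes, again with no count over all called genes beside it.

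Tubulin alpha-2 had 1518, 1673 and 1886 FPKM at booting, 510, 486 and 503 at flowering and 38.96, 41.9 and 37.5 in flag leaves. The groups did not overlap, and its log2 difference between flowering panicle and leaf was 3.63 (SE 0.10, adjusted p = 3.78e-10 in limma), the largest of the rises. Dehydrin COR410 (LOC_Os02g44870), a protective protein of water deficit, differed by 3.54 (SE 0.14, 3.97e-09; 697 ± 82.2 against 59.1 ± 9.26 FPKM, mean ± SD, n = 3). EARLY RESPONSIVE TO DEHYDRATION 15 (LOC_Os07g46670) differed by 2.87, and by 2.38 without flag leaf replicate 3, which stood at 11.6 FPKM beside 32.7 and 35.5. Phenylalanine ammonia-lyase (LOC_Os02g41630), the entry enzyme of the phenylpropanoid pathway, differed by 2.82 (SE 0.21, adjusted p = 4.9e-07 in limma).

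Among genes with an informative name, the largest differences towards the leaf were those of RuBisCO activase (-3.48), phytosulfokines 4-like (LOC_Os03g12990, -2.73), a precursor of a peptide growth factor, metallothionein 3A (-2.70), chloroplastic elongation factor Tu (LOC_Os02g38210, -2.27) and protein CP29.1 (-2.21, SE 0.15, adjusted p = 2.96e-07 in limma). Of the 16 photosystem genes 15 were lower and 1 was not called (median -1.60). Of the 8 with a peak 7 were lower and 1 was not called (median -1.69). All 3 aquaporins and all 3 tubulins without a peak were higher in the panicle. So was the 1 abundant tubulin with a peak. The 3 aquaporins with a peak were not called, at log2 differences of 0.52 to 0.93, under the limit of 1. In booting panicles against leaves 2 of these 3 were called higher, as were all 3 aquaporins without a peak.

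Booting panicles against flag leaves gave the most calls, 66 higher, 69 lower and 114 not called (54.2%, beside 54.0% over all genes tested, with 36.4% higher and 17.7% lower there). The median log2 difference was 0.10, against 0.51 over all genes. Without flag leaf replicate 3, 65 were higher and 72 lower, and 134 of the 135 calls were kept. This comparison shares its leaf libraries with the one before. All 16 photosystem genes were lower at booting, with a median of -3.25, as were all 8 with a peak, with a median of -3.24. RuBisCO activase had the largest difference, -7.82 (SE 0.15, adjusted p = 3.22e-11 in limma), and tubulin alpha-2 the largest in the other direction, 5.38 (SE 0.10, 2.28e-11). All 4 cytosolic ribosomal protein genes and 4 of 5 histones without a peak were higher at booting. Of those with a peak, 95 of 115 ribosomal protein genes and 2 of 4 histones were.

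Between any 2 groups the set held calls at about the rate of all genes tested, and above that of abundant genes with a peak, of which 12.5, 21.4 and 38.5% were called in the 3 comparisons. No comparison called 86 of the 249 genes (34.5%), against 1367 of 2467 (55.4%). The 5 genes with the smallest SD over the 9 libraries were the plant SNARE (20.2 ± 2.07, 21.6 ± 2.07 and 21.6 ± 0.346 FPKM; mean ± SD, n = 3, at booting, flowering and in leaf), glycine-rich RNA-binding protein RZ1C (LOC_Os07g08960), thiamine thiazole synthase 2 (LOC_Os07g34570), 6-phosphogluconate dehydrogenase 2 (LOC_Os11g29400) and WD repeat-containing protein 70.

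Several transcription factors without a peak were low in flag leaf replicate 3. The NAC domain protein 67-like (LOC_Os03g60080) had 149 and 147 FPKM in leaf replicates 1 and 2 and 34.4 in replicate 3. Its log2 difference between flowering panicle and leaf, called in neither case, was -0.20 with replicate 3 and -0.90 without it, and that between booting panicle and leaf was -1.61 and -2.30. Ethylene-responsive factor 11 (LOC_Os04g52090) had 59.3, 57.4 and 19.9, and factor 4 (LOC_Os05g41780) 76.9, 82.2 and 34.7. Replicate 3 was the lowest in each. Factor 11 was called higher in flowering panicles than in leaves (1.06, adjusted p = 0.0163 in limma) with this library, and not without it (0.56). Both A20 and AN1 zinc finger genes rose from booting to flowering in the panicle, a comparison without leaf libraries, by 1.64 (LOC_Os08g39450) and 1.69 (LOC_Os09g31200).

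The thresholds of the rule cut through a continuous range. Just above 20 FPKM in the lowest group stood a KH domain protein (LOC_Os08g10030, 20.1 FPKM), a NIMA-interacting isomerase (LOC_Os04g56800, 20.1) and the plant SNARE (20.2). Just below it, also without a peak, stood VQ motif-containing protein 4 (LOC_Os01g54400, 19.9), DEHYDRATION-INDUCED 19 homolog 2 (LOC_Os05g28980, 19.8) and trans-cinnamate 4-monooxygenase (LOC_Os05g25640, 19.7). On the side of the peaks, 10 of the 2467 abundant genes with a peak had a best log10 FDR above -5 in the authors' deposited table. The weakest of them there were ocs element-binding factor 1 (LOC_Os02g03960, log10 FDR -0.949, fold 2.71), 50S ribosomal protein L31 (LOC_Os01g44210, -2.66, fold 1.57) and 60S ribosomal protein L44 (LOC_Os07g33860, -3.37, fold 9.14).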

How the data were processed

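Expression was measured as FPKM in the 9 input libraries of 18; the submitters' processing notes name HISAT2, StringTie, HOMER, ChIPseeker and cutadapt, and the authors deposited FPKM per gene. Versions, build, peak caller and strand setting: not given in the sources used here. Per the file headers each of the 3 peak lists, made by the authors from pooled replicates, holds log10 p and FDR scores, a p-value and the fold ratio of immunoprecipitate over input, with no values for single replicates. Peaks were matched to genes by the authors' identifier, and by position with at least 1 base of overlap as a check.

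Depth was sought in the smallest FPKM steps, of which 33.3 to 50% were whole fragments within 0.1 at the best fit. Neither depth nor whole reads were thus recovered, and no count test was run. Levels were compared as log2(FPKM + 1) in limma 3.58.1 (R 4.3.3, trend), for 23355 genes with 1 FPKM or more in 3 libraries; folds on this scale understate changes of low genes. The script was tested on simulated data. Tables were joined in Python 3.11.15 with pandas 2.3.3. Same-numbered libraries were not treated as pairs, since 2 of 9 residual correlations were over 0.1 (range -0.189 to 0.118).

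The genes and lists were chosen with earlier results of these data known, as were the tests; 6 lists and 1 alternative (peaks by position) were added after their values were seen. Named genes were drawn from the 15 most abundant, the 8 longest and 5 shortest and the 3 on each side of the level threshold. They were also drawn from the 5 largest rises and falls with separate groups in each comparison, the 2 most abundant of each list and the 5 steadiest. Genes with no informative name were passed over except in the first 3 sets. Not every gene of these sets is named here, and others named were chosen after their values were seen. No sequence matching the table's identifiers was used here, so motifs were not counted.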

Additional observations from a re-analysis of the deposited data

How the results depend on the processing

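With a minimum of 10 FPKM in each group the rule found 522 genes, of which 45.0% spanned under 2000 bases. With 50 FPKM it found 85 genes, 14.2% of the abundant genes, of which 64.7% were short. Counting peaks by position on either strand, an alternative chosen after seeing the data, left 7.66% without a peak, of which 61.1% were short. By a single list, the share without a peak was 11.9% at booting, 12.4% at flowering and 9.83% for the leaf. Leaving out 1 library at a time gave 83 to 86 called genes for flowering against booting panicles, 96 to 107 for flowering panicles against flag leaves (96 without flag leaf replicate 3) and 130 to 137 for booting panicles against flag leaves. Under quantile normalization 69 genes were higher and 21 lower for flowering against booting panicles, 48 and 38 for flowering panicles against flag leaves and 62 and 72 for booting panicles against flag leaves; with equal library sums these were 64 and 21, 58 and 44, and 67 and 66. With the replicate number as a block the calls were the same genes, 84, 106 and 135. Of 390 alternative values of the named changes, 389 kept direction and call; metallothionein 3A between flowering panicle and leaf was -0.93 under quantile normalization and not called, and the cause was not tested. Quantile normalization moved the median of all genes from 0.44 to -0.12 for flowering panicles against flag leaves and from 0.51 to 0.00 for booting panicles against flag leaves. Of 341 alternative shares of the other lists, 10 moved by more than their interval allows. Peaks have no replicate values here, so the assignment has no error of its own, and the fragments per gene in the immunoprecipitates were not analysed here.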

Other observations

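Among the pathways of the deposited KEGG annotation, the following were picked after their values were seen. The phenylpropanoid pathway, which makes lignin and flavonoids, had 4 of 19 abundant genes without a peak (21.1%, exact 95% interval 6.05 to 45.6%, against 8.90% in the same span classes). RNA polymerase subunits had 4 of 14 (28.6%, 8.39 to 58.1%, against 12.1%) and the phagosome pathway 6 of 40 (15%, 5.71 to 29.8%, against 6.02%). All 3 intervals hold the share of the same span classes. The ribosome pathway had 7 of 190 (3.68%, 1.49 to 7.44%, against 18.6%), below that share. Among the names outside every list were abscisic stress-ripening protein 3 (LOC_Os11g06720, 699 FPKM), S-adenosylmethionine synthase 2 (LOC_Os01g22010, 265 FPKM), which makes the methyl donor of RNA methylation, and the methionine synthase gene LOC_Os12g42876 (391 FPKM).

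Genes that share their description with another gene of the table made up 48 of the 158 informative names (30.4%), against 455 of 1682 (27.1%) among abundant genes with a peak. The stem-specific protein TSJT1 had no peak at 2 abundant loci, LOC_Os11g05050 (500 FPKM) and LOC_Os12g05050 (118 FPKM).

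Protochlorophyllide reductase A (LOC_Os04g58200), an enzyme of chlorophyll synthesis, was the 1 gene called lower in flag leaves than in booting panicles among the 9 other chloroplastic proteins without a peak, of which 4 were called higher in leaves and 4 not called. It had 148 ± 20.9 FPKM at booting, 117 ± 21.2 at flowering and 21.4 ± 4.16 in flag leaves (mean ± SD, n = 3). Of the 143 other chloroplastic proteins with a peak, 7 were likewise called lower in flag leaves than in booting panicles. Another 74 were called higher in leaves and 62 were not called.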
